A study of Homo sapiens with 30 samples.

Results

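Leukocyte adhesion molecules of the endothelium were followed in the hCMEC/D3 cell line, immortalised endothelium from small vessels of the human brain that serves to model the blood-brain barrier in culture. The members were VCAM1, ICAM1, SELE, ICAM2, ICAM3, ALCAM and MCAM, taken from the deposited count table by gene symbol, 7 genes of 63138. Each symbol had a single row. RNA was sequenced in 30 libraries, 10 groups of 3, all from this 1 line and all with the same batch number in the labels. In the 5 direct groups the cells were kept for 12 h in serum-free medium alone (Control) or treated for 12 h with TNFα at 25 ng/mL (TNF) or IL-1β at 10 ng/mL (IL1b), with 50 ng/mL of C5a, a fragment of complement (C5a), or with 200 nM epinephrine (Epinephrine). In the 5 vesicle groups the same line received extracellular vesicles that had been enriched from the supernatants of cells treated in those ways. These groups carry the prefix EV, from EV-Control to EV-Epinephrine, and their titles read 12 h as well. The amount of vesicles given is not stated in the sources used here. The labels do not say whether replicates came from separate cultures, so p-values measure only the spread between these libraries.

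Leukocytes leave the blood in steps. Selectins on the endothelium first slow them to a roll, ligands of the immunoglobulin superfamily then hold them through their integrins, and further endothelial molecules carry them across the cell layer. E-selectin (SELE), VCAM1 and ICAM1 are classical targets of NF-kappaB in endothelium exposed to inflammatory cytokines, while ICAM2, ALCAM and MCAM are usually present on resting endothelium.

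Totals ran from 16643961 to 22112326 counts per library. Levels are given in CPM, counts scaled to a common library size. All 12 endothelial markers examined averaged over 1 CPM in each group, and their summed level was 911 to 1423 CPM over the 30 libraries. The markers of the labelled cell type were thus present. Some markers of other cell types passed the same threshold, so it does not set this identity apart. Of 10 leukocyte markers 1 to 3 averaged over 1 CPM, by group, TYROBP had no counts, and the summed level was 3.03 to 6.61 CPM. Of 10 mural and fibroblast markers 6 to 7 averaged over 1 CPM, by group, with sums of 520.1 to 817 CPM. Of 5 epithelial markers 3 did, the keratins KRT8, KRT18 and KRT19, with EPCAM and CDH1 under 1 CPM, and of 4 astrocyte markers 1, with no counts of AQP4. The summed epithelial markers, mostly KRT18, were at 265 to 286 CPM in Control, 163 to 176 CPM in TNF and 353 to 365 CPM in C5a, and their part in the results was not tested. In bulk RNA fewer cells with a transcript and less of it per cell cannot be told apart. Of the 7 members 6 passed the low-count filter in each fit, and ICAM3 did not.

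Exposure to TNF was followed by a rise of 5 of the 6 tested members, VCAM1, ICAM1, SELE, ALCAM and MCAM, at an adjusted p under 0.05, when 52.7% of all genes tested passed that threshold in either direction and 27.5% were higher. The sixth, ICAM2, had an adjusted p of 0.655 (edgeR's quasi-likelihood test, Benjamini-Hochberg adjustment, as for all adjusted p-values here unless another tool is named). The rises ran from 155-fold for VCAM1 to 1.09-fold for MCAM. The median log2 fold change of the 6 was 1.95, against -0.01 for all genes tested.

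VCAM1 (ENSG00000162692, chr1:100719742-100739045, plus strand) encodes the endothelial ligand of the integrin VLA-4 on lymphocytes and monocytes. The Control libraries held 7.35, 6.30 and 8.99 CPM of VCAM1, and the TNF libraries 1154, 1234 and 1116 CPM. Every TNF library lay far above every Control library, and the libraries within each group were close to each other. The log2 fold change was 7.28 (SE 0.27, adjusted p 6.86e-10 by edgeR's quasi-likelihood test).

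ICAM1 (ENSG00000090339, chr19:10270835-10286615, plus strand) encodes the ligand of the integrins LFA-1 and Mac-1, on which neutrophils and lymphocytes arrest and crawl. It stood at 146, 140.2 and 136 CPM in Control and at 1265, 1397 and 1306 CPM in TNF. Unlike VCAM1, ICAM1 was already well above 100 CPM in unstimulated cells. Its log2 fold change was 3.23 (SE 0.13, adjusted p 1.37e-09 by edgeR's quasi-likelihood test), a 9.38-fold rise. The antisense gene AC011511.5 shares 815 exon bases with ICAM1 and had at most 13 counts in a library.

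SELE (ENSG00000007908, chr1:169722641-169764705, minus strand) encodes E-selectin, which binds carbohydrate ligands on rolling leukocytes. It was scarce, with 5, 2 and 3 counts in the Control libraries and 157, 194 and 190 counts in the TNF libraries. Even the smallest TNF count was many times the largest Control count. In CPM the TNF libraries were at 10.5, 10.4 and 10.97. The ratio of the summed counts, scaled for library size, was 58.9 with an exact 95% interval of 31.8 to 124 that covers counting error only, and the fitted log2 fold change was 5.83 (SE 0.46, adjusted p 2.76e-10 by edgeR's quasi-likelihood test).

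**Figure D1:**
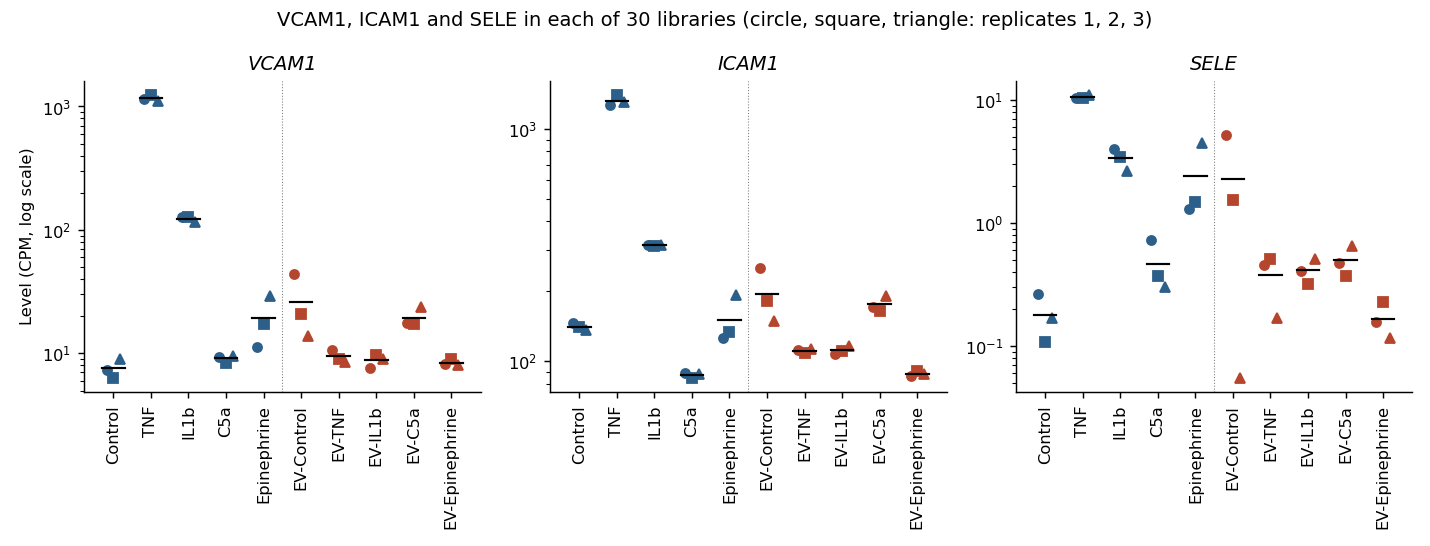
Level of VCAM1, ICAM1 and SELE (CPM, log scale) in each of the 30 libraries, by group; circles, squares and triangles are replicates 1, 2 and 3, bars are group means, blue marks direct and red vesicle groups. The TNF libraries are the highest for all 3 genes, and the EV-Control and Epinephrine libraries are spread more widely than the others.

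Since VCAM1, ICAM1 and SELE moved together under TNF, their promoters are shown. Windows of 250 bases before to 50 bases after each RefSeq start site (GRCh38.p14) were matched by symbol for VCAM1, SELE, ICAM1, ALCAM, MCAM and ICAM3. Capitals mark matches to the kappaB-like letters GGNNNTTCC on the gene's strand, in VCAM1 at chr1:100719617-100719741 (plus strand, ending at the base before the start site), in SELE at chr1:169734124-169734229 (minus strand) and in ICAM1 at chr19:10270924-10270953 (plus strand, inside an ICAM1 exon of GENCODE 29 that begins upstream of the RefSeq start site used).
VCAM1: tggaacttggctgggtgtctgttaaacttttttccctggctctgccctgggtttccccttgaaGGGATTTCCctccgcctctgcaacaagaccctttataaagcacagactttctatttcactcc
SELE: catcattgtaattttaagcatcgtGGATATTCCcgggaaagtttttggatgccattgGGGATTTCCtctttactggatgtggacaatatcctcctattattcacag
ICAM1: gctttagcttGGAAATTCCggagctgaagc

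The match nearest to the start site began 62 bases upstream in VCAM1, 93 bases upstream in SELE and 186 bases upstream in ICAM1. VCAM1 had a further match on the other strand 219 bases upstream, and SELE a further match 126 bases upstream. VCAM1 and SELE hold the same letters, GGGATTTCC, at their nearest match. ALCAM had no match in its window, MCAM had 1 that began 31 bases after its start site, and ICAM3 had 1 in a single window of its 3. Such letters are common, since 20.1% of the 35116 windows in the table (23.5% of 27305 genes) held at least 1 match on either strand. TATA-like letters (TATAAA, 11.5% of windows) began 30 bases upstream in SELE and in ICAM1 and 29 bases upstream in VCAM1, where a match on the other strand overlaps it. IRF-like letters (a pair of GAAA blocks with 2 bases between them, 3.57% of windows) occurred in VCAM1, on the other strand 15 bases upstream. AP-1-like letters (TGANTCA, 7.71% of windows) occurred in none of these windows. A match describes the letters of the reference and is not a measured site.

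**Figure D2:**
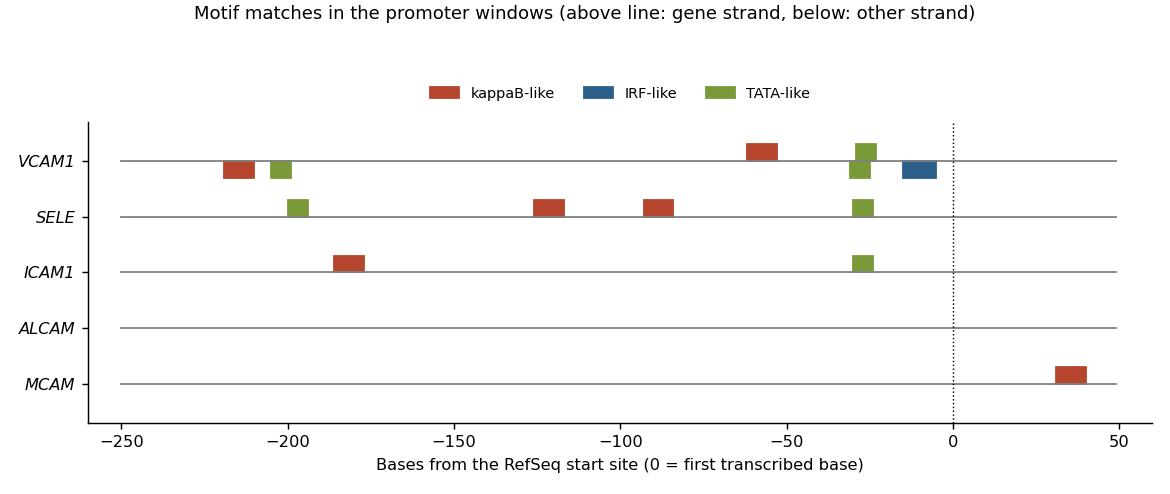
Position of motif matches in the promoter windows of VCAM1, SELE, ICAM1, ALCAM and MCAM, in bases from the RefSeq start site; boxes above a line are on the gene's strand and boxes below it on the other strand. VCAM1, SELE and ICAM1 each have a kappaB-like match upstream and a TATA-like match about 30 bases before the start site, ALCAM has neither, and the match of MCAM lies after the start site.

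ALCAM and MCAM, members of the immunoglobulin superfamily that take part in passage of leukocytes through the endothelium, moved much less under TNF. ALCAM (ENSG00000170017, chr3:105366909-105576900, plus strand), the ligand of CD6 on T cells, went from 745, 735 and 751 CPM in Control to 1189, 1191 and 1175 CPM in TNF. The groups were well apart, with replicates within a few percent of each other, and the log2 fold change was 0.67 (SE 0.04, adjusted p 4.05e-17 by edgeR's quasi-likelihood test). MCAM (ENSG00000076706, chr11:119308529-119321521, minus strand), also called CD146, measured 615, 609.9 and 583 CPM in Control and 652, 656 and 658 CPM in TNF. The MCAM groups did not overlap, and the rise of 0.12 on the log2 scale was small (SE 0.04, adjusted p 0.0104). The sign for MCAM rested on the scaling, since division by total counts gave -0.16, and the call rested on the third Control library, without which the adjusted p was 0.0693. With division by total counts the median over all genes was -0.29 and the ALCAM value 0.40. CBL, on the opposite strand, shares 509 exon bases with MCAM and had up to 3081 counts in a library. The summed mural and fibroblast markers were at 715 to 726 CPM in TNF and 634 to 712 CPM in Control, and their part in the MCAM and ALCAM values was not tested.

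ICAM2 (ENSG00000108622, chr17:64002594-64020634, minus strand), a second ligand of LFA-1 that endothelium carries without stimulation, was measured at 20.9, 16.3 and 20.9 CPM in Control and 18.6, 21.4 and 20.6 CPM in TNF. The libraries of the groups lay among each other, and the 95% interval of the log2 fold change, -0.16 to 0.28, leaves out changes of the size seen for ALCAM. PRR29 on the opposite strand shares 869 exon bases with ICAM2 and had at most 88 counts.

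**Figure D3:**
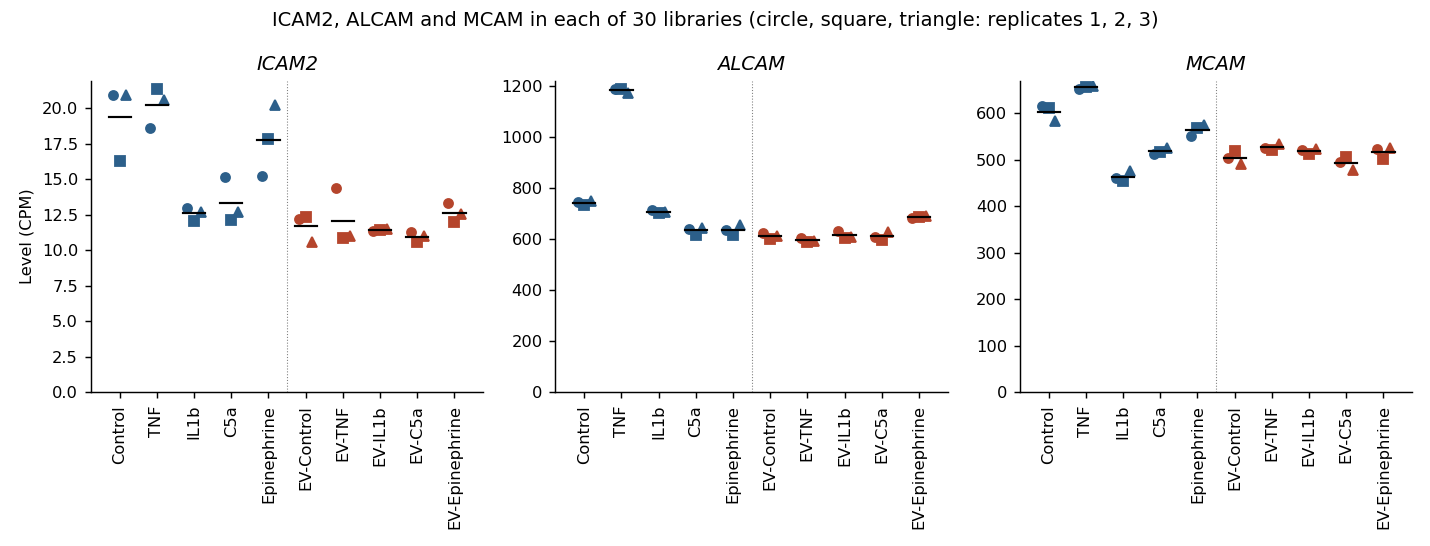
Level of ICAM2, ALCAM and MCAM (CPM, linear scale from 0) in each of the 30 libraries, by group; circles, squares and triangles are replicates 1, 2 and 3, bars are group means, blue marks direct and red vesicle groups. ALCAM is highest in TNF (1185 CPM on average), MCAM is lowest in IL1b (463 CPM), and ICAM2 is higher in Control, TNF and Epinephrine than in the vesicle groups.

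IL1b raised the same inducible genes by less than TNF and lowered ICAM2 and MCAM. Of the 6 tested members 3 were higher (VCAM1, SELE and ICAM1) and 2 lower (ICAM2 and MCAM), when 46.6% of all genes tested were called in either direction, 24% higher and 22.6% lower. VCAM1 reached 127, 127 and 116 CPM, all far above Control, a log2 fold change of 4.04 (SE 0.27, adjusted p 2.25e-07 by edgeR's quasi-likelihood test). ICAM1 reached 316, 313 and 318 CPM, a 2.25-fold rise (log2 1.17, SE 0.13, adjusted p 1.42e-05). SELE had 78, 65 and 50 counts, and its summed-count ratio to Control was 18.7 with an exact interval of 9.97 to 39.7. In all 3 genes the groups were apart, as they were in 56.3% of all genes, and the ICAM1 libraries were the most uniform of any group for that gene.

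ICAM2 fell by 0.61 on the log2 scale in IL1b (SE 0.11, adjusted p 2.92e-05 by edgeR's quasi-likelihood test), with libraries at 13.0, 12.1 and 12.7 CPM. MCAM, at 460.2, 455 and 475 CPM, fell by 0.37 (SE 0.04, adjusted p 1e-09), and the IL1b group held the lowest mean of MCAM in the study. ALCAM was at 713, 705 and 707 CPM, just under the Control libraries, and its adjusted p was 0.19; with total counts (0.00162) and with a filter at a mean of 50 counts (0.0412) it was called. The summed endothelial markers were at 1020.3 to 1055 CPM in IL1b against 1365 to 1423 CPM in Control, and the summed mural and fibroblast markers at 532 to 548 CPM. Their part in the ICAM2 and MCAM values was not tested.

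Set directly against TNF, all 6 tested members were lower in IL1b (41.4% of all genes were called and 21.4% were lower). The difference was -3.23 on the log2 scale for VCAM1 (SE 0.20, adjusted p 1.53e-07), -2.06 for ICAM1 (SE 0.12, adjusted p 9.82e-08) and -1.64 for SELE (SE 0.29, adjusted p 6.63e-05), all by edgeR's quasi-likelihood test. ALCAM differed by -0.73, ICAM2 by -0.67 and MCAM by -0.49. The doses of the cytokines differ, 25 and 10 ng/mL, so these are differences between the conditions as used.

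C5a lowered 4 of 6 tested members, ICAM1, ICAM2, ALCAM and MCAM, against 22.6% of all genes called and 10.8% lower. ICAM1 had 88.9, 84.5 and 88.4 CPM, all under the lowest Control library, and fell by 0.68 on the log2 scale (SE 0.13, adjusted p 0.00303 by edgeR's quasi-likelihood test). ICAM2 had 15.1, 12.2 and 12.7 CPM, also below every Control library, and fell by 0.53 (SE 0.11, adjusted p 0.000549). ALCAM fell by 0.22 and MCAM by 0.21, with adjusted p of 4.91e-05 and 0.000119 by the same test. VCAM1 was not detectably different, at 9.41, 8.41 and 9.58 CPM, with an interval of -0.49 to 1.07 for its log2 fold change. SELE had 14, 7 and 6 counts, and its log2 fold change of 1.34 had an adjusted p of 0.225; the interval of the summed-count ratio, 1.21 to 5.96, covers counting error and not the spread between libraries. The summed endothelial markers of the C5a libraries were at 1033 to 1083 CPM, and their part in these falls was not tested.

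Epinephrine raised SELE and VCAM1, lowered ALCAM, and left ICAM1 without a call, 3 calls among 6 members against 25.2% of all genes (13.5% higher and 11.8% lower). SELE had 25, 26 and 97 counts, each above the Control counts, a log2 fold change of 3.74 (SE 0.55, adjusted p 2.17e-05 by edgeR's quasi-likelihood test) that was 2.91 without the third library. VCAM1 was at 11.2, 17.3 and 29.1 CPM, again all above Control but unequal, a log2 fold change of 1.38 (SE 0.31, adjusted p 0.00759). In a fit of the Control and Epinephrine libraries alone the adjusted p of VCAM1 was 0.0582. ICAM1 was at 126, 134 and 193 CPM, around the Control values, and its log2 fold change of 0.11 (adjusted p 0.597) was -0.10 without the third Epinephrine library. The third Epinephrine library was the highest of its group for VCAM1, ICAM1 and SELE.

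ALCAM fell by 0.22 under epinephrine (SE 0.04, adjusted p 5.25e-05 by edgeR's quasi-likelihood test), with 636, 617 and 655 CPM. MCAM was at 551, 567 and 573 CPM, under the Control libraries, and its adjusted p was 0.109, while DESeq2 gave 0.0375, a filter at a mean of 50 counts 0.0401 and the fit of all 30 libraries 0.0299. ICAM2 overlapped Control, at 15.2, 17.8 and 20.2 CPM (interval of the log2 fold change -0.34 to 0.11). The summed endothelial markers were at 1128 to 1183 CPM in Epinephrine against 1365 to 1423 CPM in Control, and the mural and fibroblast markers at 520.1 to 537 against 634 to 712 CPM, and their part in the ALCAM value was not tested.

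**Figure D4:**
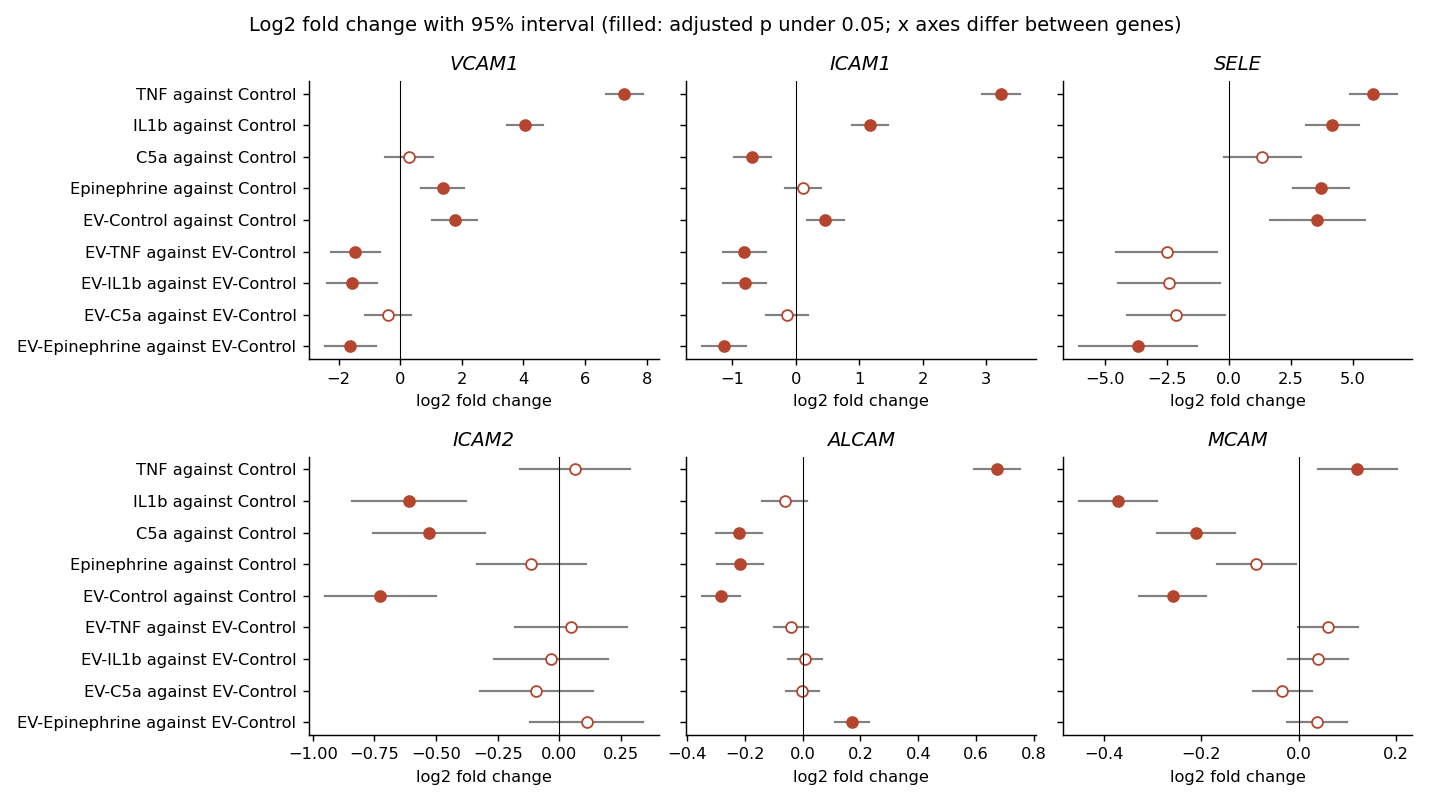
Log2 fold change with its 95% interval for the 6 tested members in the 4 direct comparisons, in EV-Control against Control, and in the 4 vesicle comparisons; filled points have an adjusted p under 0.05 and the x axes differ between genes. VCAM1, ICAM1 and SELE lie to the right of 0 under TNF (7.28, 3.23 and 5.83) and IL1b, and to the left in EV-Epinephrine against EV-Control (-1.62, -1.13 and -3.70).

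Cells given vesicles from unstimulated cells differed from cells in medium alone in all 6 tested members, against 21.9% of all genes. No group received such a preparation without vesicles. The vesicles and other differences between the arms therefore cannot be told apart in any comparison of a vesicle group with Control. VCAM1, ICAM1 and SELE were higher in EV-Control (12.1% of all genes), and ICAM2, ALCAM and MCAM lower (9.8%). VCAM1 had 43.5, 20.7 and 13.8 CPM, each above the Control libraries, a log2 fold change of 1.77 (SE 0.35, adjusted p 0.000783 by edgeR's quasi-likelihood test). ICAM1 had 252, 182 and 148 CPM, a log2 fold change of 0.46 (SE 0.14, adjusted p 0.0211). SELE had 87, 28 and 1 counts, so that the third library fell inside the range of medium alone or under it, and its log2 fold change was 3.58 (SE 0.92, adjusted p 0.00706).

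The EV-Control libraries held the most genes that differed widely between replicates. Of 10589 genes with a mean of at least 5 CPM, 71 had a highest library over 2 times the lowest, against 1 to 18 genes in the other groups, and in 57 of the 71 the first library was the highest. By the median ratio of highest to lowest library the Epinephrine group was the more spread, at 1.15 against 1.11. VCAM1 spanned 3.16 times and ICAM1 1.70 times between its EV-Control libraries. Without the first EV-Control library the adjusted p of ICAM1 was 0.215 (log2 fold change 0.24) and that of SELE 0.0956 (2.11). The ICAM1 call was also lost without the second (0.057) or the third (0.0628) Control library. In a fit of these 2 groups alone ICAM1 (0.243), VCAM1 (0.105) and SELE were not called. The 3 members called there were ICAM2, ALCAM and MCAM. TNFAIP3, the NF-kappaB feedback inhibitor A20, followed the same order over the libraries, at 437, 319.6 and 217 CPM. REL did so too, at 63.7, 27.1 and 18.6 CPM, as did NFKB2 and NFKBIA. Not every NF-kappaB gene did. RELA was at 130, 129 and 130 CPM, NFKB1 at 89.5, 67.1 and 67.9 CPM, and RELB at 24.4, 14.7 and 14.8 CPM.

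The lower members were uniform. ICAM2 had 12.2, 12.3 and 10.6 CPM in EV-Control and fell by 0.73 on the log2 scale (SE 0.11, adjusted p 7.56e-07 by edgeR's quasi-likelihood test). ALCAM had 623, 601 and 611 CPM and fell by 0.28, and MCAM had 504, 518 and 489 CPM and fell by 0.26, with adjusted p of 5.37e-10 and 2.44e-08. No EV-Control library of these 3 genes reached the lowest Control library, and the groups did not overlap in 34.9% of all genes. The summed endothelial markers stood at 914 to 953 CPM in EV-Control against 1365 to 1423 CPM in Control, and their part in these values was not tested.

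Vesicles from TNF-treated cells did not raise the inducible members over EV-Control. VCAM1 and ICAM1 were lower, 2 of 6 members against 13.3% of all genes called and 7.42% lower. VCAM1 was at 10.7, 9.05 and 8.57 CPM in EV-TNF, all below the lowest EV-Control library, and fell by 1.45 on the log2 scale (SE 0.36, adjusted p 0.0239 by edgeR's quasi-likelihood test). ICAM1 was at 112, 108 and 113 CPM, uniform and below EV-Control, and fell by 0.81 (SE 0.15, adjusted p 0.00516). SELE had 9, 10 and 3 counts, within the EV-Control range of 1 to 87, and its log2 fold change of -2.53 had an adjusted p of 0.109. SELE was called without the third EV-Control library (-3.10, adjusted p 1.36e-06), with no low-count filter (2.64e-05) and in the fit of all 30 libraries (0.0457), and was at -1.04 without the first EV-Control library. The VCAM1 call was lost without any single EV-TNF library (adjusted p 0.0592 to 0.0808), and both calls were lost in a fit of the compared groups alone (0.221 and 0.126). Without the first EV-Control library the VCAM1 value was -0.87.

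Vesicles from IL1b-treated cells gave nearly the same levels as those from TNF-treated cells. VCAM1, at 7.67, 9.65 and 9.001 CPM, fell by 1.56 against EV-Control (SE 0.37, adjusted p 0.0173 by edgeR's quasi-likelihood test), and ICAM1, at 107, 110.3 and 116 CPM, fell by 0.80 (SE 0.15, adjusted p 0.00511). These were the 2 members called, against 14.6% of all genes (8.14% lower). SELE had 7, 6 and 9 counts (log2 fold change -2.43, adjusted p 0.119), and was called without the third EV-Control library (adjusted p 2.65e-06) and with no low-count filter (5.81e-05). Without the first EV-Control library SELE was at -0.94. Without the first EV-IL1b library (adjusted p 0.0696) or the third (0.0544) VCAM1 was not called, and a fit of the 2 groups alone called neither gene (0.189 for VCAM1, 0.125 for ICAM1). Without the first EV-Control library the VCAM1 value was -0.97. In EV-IL1b against EV-TNF edgeR and DESeq2 called 0 of 6 members, 0 had an unadjusted p under 0.05, and 0.00628% of all genes were called. The interval of that difference was -0.34 to 0.35 on the log2 scale for ICAM1 and -1.01 to 0.80 for VCAM1.

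With vesicles from C5a-treated cells no member was called against EV-Control, whose libraries were unequal. The interval of the log2 fold change was -1.15 to 0.34 for VCAM1 and -0.47 to 0.19 for ICAM1. VCAM1 was at 17.5, 17.3 and 23.7 CPM and ICAM1 at 171, 165 and 192 CPM, inside the EV-Control ranges. By edgeR's quasi-likelihood test and by DESeq2 0 of 6 members were called, 1 (SELE, with 9, 7 and 12 counts) had an unadjusted p under 0.05, and 0.0503% of all genes were called. Without the first EV-Control library the VCAM1 value turned from -0.41 to 0.18 and the ICAM1 value from -0.14 to 0.09. SELE, at -2.15 with an adjusted p of 0.637, was called without the third EV-Control library (0.00015) and with no low-count filter (0.00889).

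Vesicles from epinephrine-treated cells gave the lowest mean levels of VCAM1, ICAM1 and SELE among the vesicle groups, with VCAM1 and SELE overlapping the next groups. VCAM1, ICAM1 and SELE were lower than in EV-Control and ALCAM was higher, 4 of 6 members against 19.7% of all genes called, 10.5% lower and 9.12% higher. ICAM1 had 86.1, 90.9 and 88.3 CPM, well below EV-Control, and fell by 1.13 on the log2 scale (SE 0.16, adjusted p 0.000393 by edgeR's quasi-likelihood test). VCAM1 had 8.14, 9.06 and 8.04 CPM and fell by 1.62 (SE 0.37, adjusted p 0.0106). SELE had 3, 4 and 2 counts and fell by 3.70 (SE 1.08, adjusted p 0.0336), although the third EV-Control library with its single count was lower than any of these. The ratio of summed SELE counts was 0.0764 (exact 95% interval 0.0341 to 0.150).

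In that comparison the SELE call was lost without any single EV-Epinephrine library (adjusted p 0.0845 to 0.106). A fit of the 2 groups alone called 2 members, ICAM1 and ALCAM, but not VCAM1 (0.136) or SELE. Without the first EV-Control library VCAM1 was at -1.04 and SELE at -2.21. ALCAM had 685, 689 and 691 CPM, above all EV-Control libraries, and rose by 0.17 (SE 0.03, adjusted p 9.56e-06 by edgeR's quasi-likelihood test). The summed mural and fibroblast markers were highest in EV-Epinephrine, at 785 to 817 CPM against 624 to 665 CPM in EV-Control, and their part in the ALCAM value was not tested.

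Because EV-Control was itself raised, the 4 other vesicle groups were also set against medium alone, a choice made after the values were seen. VCAM1 was called in EV-C5a, higher by 1.37 on the log2 scale (SE 0.37, adjusted p 0.00919 by edgeR's quasi-likelihood test), and ICAM1 in EV-Epinephrine, with a log2 difference of -0.67 (SE 0.14, adjusted p 0.00151). ICAM1 lay below every Control library in EV-TNF and EV-IL1b too, with adjusted p of 0.0958 and 0.0966, and above them in EV-C5a (0.118). In fits of the compared groups alone these 3 were called (2.38e-08, 4.78e-10 and 1.45e-06). SELE was not called in these 4 comparisons, with adjusted p of 0.459 to 0.974.

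ICAM2, ALCAM and MCAM were lower than in medium alone in all 4 of these groups. The log2 differences were -0.62 to -0.82 for ICAM2, -0.11 to -0.32 for ALCAM and -0.20 to -0.29 for MCAM. Calls among the 6 members were 3 in EV-TNF, 3 in EV-IL1b, 4 in EV-C5a and 4 in EV-Epinephrine, against 21.2%, 22.9%, 21.3% and 23.3% of all genes. The smallest of these falls, ALCAM in EV-Epinephrine (adjusted p 0.00831), lost its call without the first (0.062) or the third (0.0667) Control library, without any EV-Epinephrine library (0.0532 to 0.0604) and with no low-count filter (0.0733). The summed endothelial markers were at 911 to 1075 CPM in the vesicle groups.

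The vesicle response minus the direct response was tested in the fit of all 30 libraries. For TNF 4 of 6 members differed between the arms (44.7% of all genes called), for IL1b 5 (35.2%), for C5a 2 (11.9%) and for epinephrine 5 (24.2%). VCAM1, ICAM1 and SELE differed for TNF, IL1b and epinephrine, in each case with the vesicle response below the direct one. The largest of these was VCAM1 for TNF, where the direct response was 7.28 and the vesicle response -1.45 on the log2 scale. ALCAM, MCAM or ICAM2 differed by at most 0.71.

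Per kilobase of exon, the order of the members changed with the cytokine. In Control the levels were 104 ± 1.18 CPM per kilobase for ALCAM (mean ± SD, n = 3), 81.2 ± 2.36 for MCAM, 38.0 ± 1.34 for ICAM1, 5.97 ± 0.827 for ICAM2, 1.25 ± 0.225 for VCAM1 and 0.0392 ± 0.0173 for SELE. Each of these levels was separated from the next by more than the spread of the libraries. In TNF ICAM1 led at 357 ± 18.2 CPM per kilobase, followed by VCAM1 at 193 ± 9.98, ALCAM at 165 ± 1.15, MCAM at 88.3 ± 0.411, ICAM2 at 6.23 ± 0.438 and SELE at 2.32 ± 0.0657. SELE thus remained the scarcest of the 6 in the condition where it was highest.

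Across the 10 groups the mean CPM of VCAM1 and of ICAM1 fell in the order TNF, IL1b, EV-Control, EV-C5a, Epinephrine at the top, with TNF and IL1b clear of each other and of the rest. EV-Control overlapped EV-C5a, and EV-C5a overlapped Epinephrine, for both genes. For VCAM1 the remaining groups (EV-TNF, C5a, EV-IL1b, EV-Epinephrine and Control, 7.54 to 9.44 CPM on average) overlapped each neighbour in turn. For ICAM1 Control was sixth and apart from EV-IL1b and EV-TNF below it, and EV-Epinephrine (88.4 CPM) and C5a (87.3 CPM) were lowest and overlapped. For SELE TNF alone was apart from its neighbour.

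ICAM3 (ENSG00000076662, chr19:10333776-10339823, minus strand), the LFA-1 ligand of resting leukocytes, was near the limit of detection. Its 30 libraries held 46 counts in all. A count of 0 was found in 11 libraries, among them all 3 of EV-Control, and 4 libraries had more than 3 counts, with a maximum of 6 in the first Epinephrine library. A count of 0 allows up to 3 counts, 0.138 to 0.2 CPM here, so no fold is given. The antisense gene AC114271.1 shares 2101 exon bases with ICAM3 and had up to 19 counts.

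The genes whose 10 group means ran most like each member's were found among 11029 genes by Pearson's r of log2 CPM, as a description over groups that share libraries and in which TNF stands far out. For VCAM1 they were ABCF1 (r 0.992), WTAP (0.992) and PALM2AKAP2 (0.991), and for ICAM1 NFKB2 (0.993), RIPK2 (0.99) and PALM2AKAP2 (0.988). For SELE they were PTRH2 (0.979), C2CD4B (0.979) and PSME4 (0.971). NFKB2 encodes an NF-kappaB subunit and RIPK2 a kinase of the NOD pathway. For ICAM2 they were EXOC1 (0.977), ACVRL1 (0.971) and B4GALT4 (0.95), for ALCAM SCARF1 (0.987), FBRS (0.985) and SCARB2 (0.983), and for MCAM KANK3 (0.959), SEC61B (0.949) and ROBO4 (0.94). ACVRL1 and ROBO4 are receptors of endothelial cells. With Spearman's rho only 1 of these 18 places was kept, NFKB2 for ICAM1.

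A list of 20 regulators that act on the inducible members held genes of the NF-kappaB pathway and IRF1. It also held other transcription factors, JUN, FOS, FOSL1, ATF3, CEBPB, CEBPD, GATA2, KLF2 and KLF4. Under TNF 16 of the 20 were higher and 2 lower, with a median log2 fold change of 1.31. Of all genes 27.5% were higher and 25.3% lower. The largest changes were those of TNFAIP3 (4.45), IRF1 (3.17), RELB (2.80) and NFKB2 (2.45). IL1b gave 12 higher and 3 lower (median 0.42; 24% and 22.6% of all genes), led by falls of ATF3 (-2.20) and KLF2 (-1.84), a flow-induced factor that restrains adhesion genes. C5a gave 2 higher and 9 lower (median -0.37; 11.8% and 10.8% of all genes), led by ATF3 (-2.62) and NFKBIA (-1.92), which encodes the inhibitor IkappaB alpha. Epinephrine gave 10 higher and 2 lower (median 0.18; 13.5% and 11.8%), led by TNFAIP3 (2.05) and IRF1 (1.14). EV-Control against Control gave 13 higher and 2 lower (median 0.59; 12.1% and 9.8%), led by the same TNFAIP3 (2.32) and IRF1 (1.62).

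Against EV-Control 11 of 20 regulators were lower in EV-TNF (7.42% of all genes), 11 in EV-IL1b (8.14%) and 13 in EV-Epinephrine (10.5%), with TNFAIP3 at -1.54, -1.54 and -3.06. FOS was the 1 higher regulator in EV-TNF (2.04) and EV-IL1b (2.22), where 5.9% and 6.49% of all genes were higher, and in the EV-Control libraries FOS ran opposite to TNFAIP3, at 44.2, 104 and 355 CPM. The median over all genes lay between -0.02 and 0.01 in each of these comparisons.

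**Figure D5:**
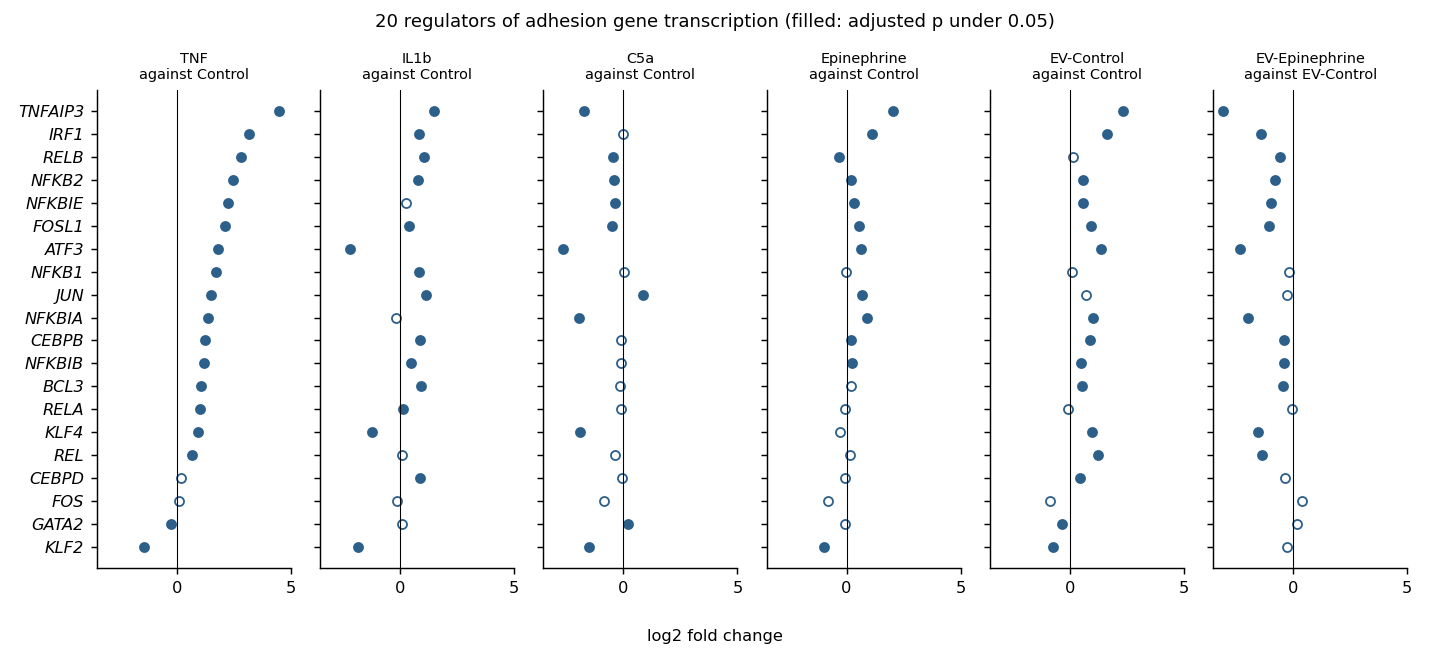
Log2 fold change of 20 regulators (NF-kappaB pathway genes, IRF1 and other transcription factors) in 6 comparisons, ordered by their value in TNF against Control. Filled points have an adjusted p under 0.05. TNFAIP3 and IRF1 are to the right of 0 under TNF, epinephrine and EV-Control, and to the left in EV-Epinephrine against EV-Control.

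Other molecules of the docking and transmigration path split under TNF, with 9 of 22 tested higher, 6 lower and a median of 0.13, when 27.5% of all genes were higher and 25.3% lower. CX3CL1, a membrane-bound chemokine that captures monocytes, rose by 6.61 on the log2 scale, CD47 by 1.77 and CD44, a hyaluronan receptor, by 1.64, while the junctional molecule ESAM changed by -1.11. SELP, ICAM4, CD99 and JAM2 were not tested. CX3CL1 (4.14) and CD44 (1.54) led in IL1b, where 4 were higher and 9 lower (24% and 22.6% of all genes). In C5a, Epinephrine and EV-Control against Control 11, 9 and 10 were lower (10.8%, 11.8% and 9.8% of all genes) and 3, 2 and 3 higher (11.8%, 13.5% and 12.1%). CX3CL1 was among the lower genes in each of these 3 (-1.22, -1.50 and -1.17). Against EV-Control, ESAM rose in EV-TNF (0.65), EV-IL1b (0.62) and EV-Epinephrine (0.57), and CD34, a sialomucin of endothelium, in the same comparisons (0.55, 0.54 and 0.39).

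A list around the link from adhesion molecule tails to actin held actin linkers, ERM proteins, exchange factors, small GTPases, tetraspanins and CAV1. Under TNF 13 of its 17 tested genes were higher and 2 lower. The median was 0.26, when 27.5% of all genes were higher and 25.3% lower. CAV1 (1.24), the exchange factor TRIO (1.01), ACTN1 (0.84) and the ERM protein MSN (0.77) changed most. In IL1b 5 of 17 were higher, with TRIO at 0.61, and 4 lower, shares near the 24% and 22.6% of all genes. C5a gave 4 higher and 1 lower (11.8% and 10.8% of all genes), and Epinephrine 1 and 4 (13.5% and 11.8%). A list of proteases that release soluble adhesion molecules also held their inhibitors and, as neither, RHBDF1 and RHBDF2. Of its 12 tested genes 8 were higher under TNF and 3 lower (27.5% and 25.3% of all genes). That count mixes proteases with inhibitors. The largest changes were MMP2 at -2.43, ADAM8 at 2.29, RHBDF2 at 1.68 and the inhibitor TIMP3 at 1.05. ADAM8 was lower in C5a (-0.86) and Epinephrine (-1.03). MMP2 was lower in IL1b (-1.49), C5a (-0.80) and Epinephrine (-1.01) as well.

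Of 10 receptor genes for the 4 stimuli, C5AR2 and ADRB3 did not pass the low-count filter in the direct fit. Under TNF 4 of 8 were higher and 3 lower (27.5% and 25.3% of all genes), with ADRA1B at -1.21, TNFRSF1B at 0.94 and IL1R1 at 0.92. In C5a 0 of 8 were higher and 4 lower (11.8% and 10.8% of all genes), with C5AR1 at -0.997. In Epinephrine 4 of 8 were higher and 2 lower (13.5% and 11.8% of all genes). The lower ones there were ADRA1B (-0.89) and ADRB1 (-0.68).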

How the data were processed

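The authors deposited raw read counts per Ensembl gene, and that count is the unit used. The submitters' processing notes name hg38, FastQC, STAR, DESeq2 and R 4.4.1, with no role or order. The counting program, annotation release and strand setting are not given in the sources used here. The table held 63147 lines; 4 without an ID and 2 with an ID but no counts were left out, and 3 repeated IDs were identical, which left 63138 genes. Per the labels' protocols, libraries were made with a NEBNext Ultra kit from 1 ng of total RNA.

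Counts were filtered with filterByExpr, scaled by trimmed means of M-values (TNF factors 0.842 to 0.861, others 0.974 to 1.05) and tested, two-sided, with edgeR 4.0.16 in R 4.3.3 (quasi-likelihood, robust, Benjamini-Hochberg over all genes, threshold 0.05). The direct arm (15 libraries, 15908 genes), the vesicle arm (15 libraries, 15918 genes) and all 30 libraries (16691 genes; EV-Control or other vesicle groups against Control, and the interactions) were fitted separately. CPM come from the fit of 30 libraries, and lengths and positions from GENCODE 29. Replicate pairs had a chi-square of 2.04 to 12.9 per gene, so no replicates were alike within sampling noise. Same-numbered libraries did not deviate together (correlations -0.039 to 0.03). Simulated data for TNF against Control had 15379 genes, of which 194 were changed, up and down alike. The test found 73 of 97 genes changed by 1 on the log2 scale and 96 of 97 changed by 2, with 5 false calls. In the data 52.7% of genes were called under TNF, a broad shift that the simulation lacks. Its false calls therefore do not carry over to the data.

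All members were named throughout, with the 3 genes most like each and, per list, the 4 called genes with the largest change in TNF and up to 2 elsewhere. The value of 1 listed gene is not reported here. The regulators described by library, among them REL, TNFAIP3 and FOS, were chosen after their values were seen. Members, lists and tests were chosen with earlier results of these data known. Alternatives were relative log expression factors, total counts, 2 other count filters, DESeq2 1.42.0, a fold threshold, a replicate block, other library sets and leaving out each library.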

Additional observations from a re-analysis of the deposited data

Results flagged for a closer look

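A test of the difference between the vesicle response and the direct response singled out 16 values, each the vesicle log2 fold change (against EV-Control) minus the direct one (against Control), with an adjusted p under 0.05 by edgeR's quasi-likelihood test in the fit of 30 libraries. For TNF these were VCAM1 (-8.72), SELE (-8.34), ICAM1 (-4.04) and ALCAM (-0.708), and for IL1b SELE (-6.59), VCAM1 (-5.58), ICAM1 (-1.96), ICAM2 (0.587) and MCAM (0.421). In both cases the inducible genes rose under the cytokine and were lower or not called under its vesicles. For MCAM and ICAM2 the direct IL1b value was negative and the vesicle value near 0.

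For epinephrine the values were SELE (-7.41), VCAM1 (-2.98), ICAM1 (-1.24), ALCAM (0.396) and MCAM (0.133), and for C5a ALCAM (0.228) and MCAM (0.186). ALCAM fell under direct epinephrine against Control and rose under its vesicles against EV-Control. Set against Control, ALCAM was lower in EV-Epinephrine too, at -0.11 on the log2 scale, a call lost in several alternative fits. The MCAM value for epinephrine lost its call without 7 of the 12 libraries, 1 at a time (adjusted p 0.0859 to 0.138), with no low-count filter (0.242) and in a fit of the compared groups alone (0.143). All of these values use EV-Control, whose first library was the highest of its group for VCAM1, ICAM1 and SELE. Without it SELE was at -6.86 for TNF, -5.13 for IL1b and -5.94 for epinephrine. Groups of 3 libraries were not tested for single outlying libraries.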

How the results depend on the processing

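SELE and ICAM3 are limited by few counts, and the comparisons with EV-Control by its unequal libraries. Of 114 log2 values of single members, relative log expression factors and the replicate block changed no call, and DESeq2 added 3. Same-numbered libraries were not treated as pairs, since their deviations correlated by only -0.039 to 0.03. In EV-IL1b and EV-Epinephrine against EV-Control and in EV-IL1b against EV-TNF all 3 libraries were nonetheless closest to their own number. Whether pairs exist cannot be settled from such small values. With the replicate block the member counts were unchanged, and all genes called in EV-IL1b against EV-TNF went from 1 to 3. Causes were not tested where not named.

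Total counts as scaling turned ICAM2 (-0.21) and MCAM (-0.16) in TNF against Control and in the TNF interaction (0.28 and 0.23), of which MCAM in TNF was called both ways and its interaction with total counts only. It also moved the share of higher genes among those called from 52.1% to 22.7% for TNF, 51.5% to 38.6% for IL1b, 48.1% to 76.1% for IL1b against TNF (median 0.21), 46.4% to 60.2% for EV-Epinephrine, 55.3% to 42.6% for EV-Control against Control, 47.7% to 76.7% for the TNF interaction (median 0.31) and 48.1% to 62.4% for that of IL1b (median 0.11). Among the few genes called in EV-C5a it went from 25.0% to 40.0%, and in EV-IL1b against EV-TNF from 1 gene of 1 to 33.3% of 3.

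A log2 fold change over 1 as a second condition left 3 members in TNF, IL1b, IL1b against TNF and the IL1b and epinephrine interactions. It left 2 in EV-Control against Control, and 1 in EV-TNF and EV-IL1b against EV-Control and in EV-C5a against Control. None were left (0) in C5a, its interaction and the other vesicle groups against Control. Epinephrine against Control kept SELE and VCAM1. The TNF interaction and EV-Epinephrine against EV-Control each kept VCAM1, ICAM1 and SELE. All genes then numbered 2037 (TNF), 1118 (IL1b), 330 (C5a), 313 (Epinephrine), 1124 (IL1b against TNF), 208 (EV-TNF), 219 (EV-IL1b), 0 (EV-C5a), 368 (EV-Epinephrine), 0 (EV-IL1b against EV-TNF), 372 (EV-Control against Control), 2260, 1188, 264 and 768 (interactions of TNF, IL1b, C5a and epinephrine), and 352, 383, 290 and 423 (vesicle groups against Control, in the order of their stimuli).

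Fits of only the compared groups called 0 members in EV-TNF, 0 in EV-IL1b, 2 in EV-Epinephrine and 3 in EV-Control against Control. DESeq2 called 4 members in the C5a interaction, and no low-count filter 1 in EV-C5a. In EV-C5a all genes called were 5 with total counts, 73 with no filter and 3 with a mean of 50 counts, only these groups or all 30 libraries, against 8; in EV-IL1b against EV-TNF they were 3, 23 (no filter), 6 (only these groups) and 0 (all 30 libraries), against 1.

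With 1 library left out, members called ranged from 1 to 3 in EV-TNF and in EV-IL1b and from 0 to 1 in EV-C5a, and all genes from 2 to 175 in EV-C5a (the highest without EV-Control 3) and 0 to 3 in EV-IL1b against EV-TNF. Values of members that were not called and changed sign ranged as follows: ICAM2 -0.049 to 0.13 in TNF, -0.099 to 0.12 in EV-TNF, -0.097 to 0.0046 in EV-IL1b, -0.16 to 0.063 in EV-IL1b against EV-TNF and -0.16 to 0.099 in the TNF interaction (0.0081 with a mean of 50 counts), ICAM1 -0.10 to 0.23 in Epinephrine, -0.30 to 0.093 in EV-C5a and -0.029 to 0.031 in EV-IL1b against EV-TNF, VCAM1 -0.71 to 0.18 in EV-C5a, and SELE -0.23 to 0.36 in EV-IL1b against EV-TNF and -0.37 to 0.28 in EV-Epinephrine against Control. ALCAM ranged from -0.013 to 0.022 in EV-IL1b and from -0.022 to 0.017 in EV-C5a, where it was 0.012 with total counts, 0.00040 with no filter, 0.00097 with a mean of 50 counts and 0.0038 with only these groups.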
